A study of Mus musculus with 2 samples.

Results

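The miR-99/100 and miR-125 genes are the neighbours of let-7 in 3 paralogous loci of the mouse genome. The members were taken by gene name from the GENCODE M21 annotation and are Mir99a, Mir99b, Mir100, Mir125a, Mir125b-1 and Mir125b-2, which makes 6 of the 2202 microRNA genes counted. The data are microRNA-seq read counts from hearts of male B6CASTF1/J mice, the F1 hybrid of C57BL/6J and a CAST strain, at an age of 10 days. They comprise 1 library for each of biological replicates 1 and 2, which form 1 group with no treatment and no other tissue or age. The labels number the males separately, under a common donor identifier. They give no allele, agent or sort.

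The counts on the gene strand summed to 3748432 in replicate 1 and 6305782 in replicate 2. Levels are given as CPM, counts scaled to 1000000 per library. They are not divided by hairpin length, which is 65 to 80 bases for the members. A count of 0 allows up to 3 counts, which is 0.800 CPM for replicate 1 and 0.476 CPM for replicate 2. The intervals below hold counting error alone and treat each read as independent. Copies made by PCR are not separate molecules, so the intervals may be too narrow. Multimapping reads, those that fit several places, made up 36.8% of replicate 1 and 48.1% of replicate 2 and stand apart from the gene counts. Of the 7 cardiac muscle markers 6 were detected, meaning 10 or more counts in each library, and the list summed to 8318 CPM in replicate 1 against 12455 CPM in replicate 2. Its main genes went opposite ways, with Mir208a at 3795 and 1362 CPM in replicates 1 and 2, Mir208b at 794 and 3444 CPM and Mir499 at 3678 and 7542 CPM. The 2 endothelial markers summed to 88957 and 100563 CPM, nearly all of it from Mir126a, and the 2 smooth muscle markers to 44790 and 53313 CPM. The 6 neuronal markers had 2 counts in each library, with Mir9-2 and the 3 Mir124a genes at 0. Reads that fit several copies of a gene would stand apart as multimapping, and how many did for these lists was not tested. Low counts of numbered gene copies, such as Mir1a-1 or Mir9-2, therefore do not show that the microRNA was scarce. Among the cardiac muscle markers this covers Mir1a-1, at 3.47 CPM in replicate 1 and 3.01 CPM in replicate 2. It also covers Mir1a-2 (43.2 CPM in replicate 1, 99.6 CPM in replicate 2) and Mir133a-1 (2.67 CPM, then 4.28 CPM). The sum of the cardiac muscle list may thus be too low, and the sums of the lists do not rank the cell types. Fewer cells of a type and less RNA per cell cannot be told apart in such bulk tissue, and the cells that hold the members were not identified.

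MicroRNAs of the miR-125 family are the vertebrate relatives of lin-4, which with let-7 was found in Caenorhabditis elegans as a timer of development. MiR-125 and let-7 both repress Lin28, the RNA-binding protein that blocks let-7 maturation. The miR-99/100 family is known in human cells for repression of the growth kinase MTOR and the chromatin remodeller SMARCA5. In the regenerating zebrafish heart, miR-99/100 and let-7 fall together as cardiac muscle cells return to an immature state.

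The mature 5p forms are shown first, because their shared letters decide which members can be counted apart. They were read from RefSeq (GRCm38.p6), run 5′ to 3′, and carry the seed, bases 2 to 8, in capitals.
miR-99a-5p: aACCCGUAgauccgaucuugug
miR-99b-5p: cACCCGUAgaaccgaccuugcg
miR-100-5p: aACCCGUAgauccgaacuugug
miR-125a-5p: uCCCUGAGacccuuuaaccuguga
miR-125b-5p: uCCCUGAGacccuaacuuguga
The 3 miR-99/100 genes shared 1 seed and the 3 miR-125 genes another. With positions counted from 1 at the 5′ end, miR-99a-5p and miR-100-5p differed by a single substitution, U16A, so that their first 15 bases are identical. MiR-99b-5p was set apart from miR-99a-5p by A1C, U11A, U16C and U21C. MiR-125a-5p and miR-125b-5p shared their first 13 bases.

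The pair of miR-125b genes could not be told apart by the 5p form at all. By exact match, the 5p forms of Mir99a, Mir99b, Mir100 and Mir125a were each found in 1 counted hairpin, that of miR-125b in 2. MiR-99a-5p and miR-100-5p each lie 1 mismatch from the hairpin of the other. Whether reads were placed with a mismatch allowed is not stated. The let-7 genes of the loci split in the same manner, with capitals again on bases 2 to 8.
let-7e-5p: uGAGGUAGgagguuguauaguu
let-7c-5p: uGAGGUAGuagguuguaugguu
let-7a-5p: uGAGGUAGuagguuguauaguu
Let-7e-5p lies in 1 counted hairpin and is 1 mismatch from that of Mirlet7a-2. Let-7c-5p lies in the hairpins of Mirlet7c-1 and Mirlet7c-2, and let-7a-5p in those of Mirlet7a-1 and Mirlet7a-2.

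The 3 loci have the same order on the plus strand, miR-99/100 first, let-7 second and miR-125 last, at very different spacing (mm10 coordinates throughout). The compact locus lies on chromosome 17 and spans 692 bases. Mir99b (ENSMUSG00000065396.1) is at chr17:17830188-17830257, Mirlet7e at chr17:17830352-17830444 and Mir125a (ENSMUSG00000065479.2) at chr17:17830812-17830879. The protein-coding gene Spaca6, known for its part in sperm-egg fusion, runs over them on the same strand, with Mir99b in an intron of both annotated transcripts there and Mir125a within an exon of 1 of 3 transcripts.

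The other loci are spread out. On chromosome 16, Mir99a (ENSMUSG00000065530.1, chr16:77598936-77599000) is followed by Mirlet7c-1 after 656 bases and by Mir125b-2 (ENSMUSG00000065472.1) after a further 46522 bases. These 3 hairpins are intronic in the long noncoding host gene Mir99ahg. On chromosome 9, Mir100 (ENSMUSG00000093011.1, chr9:41531425-41531504) precedes Mirlet7a-2 by 5211 bases, and Mir125b-1 (ENSMUSG00000093354.1, chr9:41581926-41582002) follows after 45114 bases. They are intronic in the noncoding gene 3110039I08Rik, which RefSeq (GRCm38.p6) lists as Mir100hg. Mir125b-1 and Mir125b-2 also overlap an exon of a single-exon noncoding or unclassified gene, Gm28119 for the first and C130023A14Rik for the second.

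**Figure D1:**
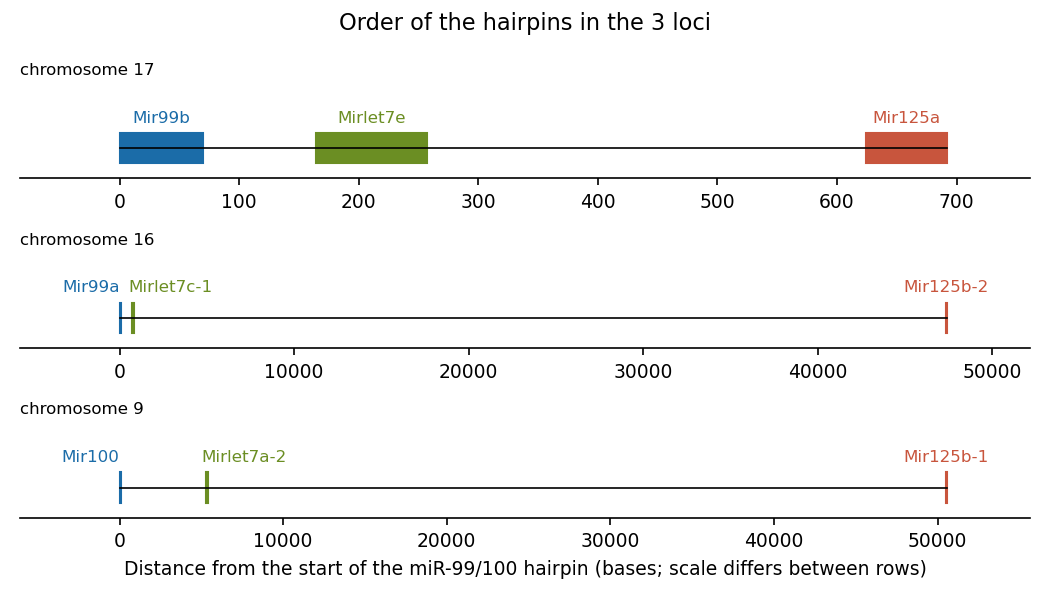
Map of the 3 loci, with distance in bases from the start of the miR-99/100 hairpin on the x axis and 1 row for each locus at its own scale. Blue boxes are miR-99/100 hairpins, green let-7 and red miR-125. The order is the same in each row, while the span is 692 bases on chromosome 17, 47408 on chromosome 16 and 50578 on chromosome 9.

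The miR-99/100 genes were among the most counted microRNA genes of the heart libraries. The miR-125 genes were counted far lower as a sum, although Mir125a lay near Mir100. That sum is uncertain, because the 5p form of miR-125b lies in 2 counted hairpins. Shares and ranks refer to counts assigned to genes, 42.4% of the reads of replicate 1 and 37.0% of those of replicate 2. Multimapping reads are left out, so genes whose mature form lies in several places may be counted too low. The 6 members together held 9.25% of the counts in replicate 1, with an exact 95% interval of 9.23% to 9.28%, and 7.37% in replicate 2, with 7.35% to 7.39%. The 3 miR-99/100 genes made up 8.68% and 6.67% of the counts, against 0.577% and 0.701% for the 3 miR-125 genes. All 6 members were detected, as were 340 of all genes, and no read was counted on the strand opposite to any of them.

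Mir99a led the group with 54214 CPM (replicate 1) and 47969 CPM (replicate 2), a mean of 51092 ± 4416 CPM (SD, n = 2), and ranked 5 of all genes by its mean. Mir99b, at 25054 CPM in replicate 1 and 12567 CPM in replicate 2, varied most (mean 18811 ± 8830 CPM, rank 14). Mir100 had 7506 and 6146 CPM (mean 6826 ± 962 CPM, rank 26). In each library the order of the 3 genes was Mir99a, Mir99b, Mir100, and the values of neighbours in that order did not overlap.

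Among the miR-125 genes, Mir125a stood at 5342 CPM in replicate 1 against 6540 CPM in replicate 2 (mean 5941 ± 847 CPM, rank 29). Its values overlapped those of Mir100, which it trailed in replicate 1 and exceeded in replicate 2, so the order of this pair is not set by these libraries. Mir125b-1 had 289 and 309 CPM (mean 299 ± 13.7 CPM) and Mir125b-2 had 143 and 163 CPM (mean 153 ± 14.0 CPM). Mir125a took 92.5% of the counts of its family in replicate 1 and 93.3% in replicate 2. These shares are uncertain, since miR-125b-5p is encoded by both miR-125b genes and reads that fit both hairpins cannot be assigned to either.

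How far the low counts of Mir125b-1 and Mir125b-2 come from such reads was not tested. Of all counted genes with a 5p form in RefSeq, 630 had it in 1 counted hairpin, and 237 of these were detected, with a median of 97.8 CPM and 59 at or above 1000 CPM. Another 66 genes had it in 2 or more hairpins, and 31 of these were detected, with a median of 50.6 CPM and 4 at or above 1000 CPM, the highest being Mirlet7f-2 at 6040 CPM. The miR-125b genes were thus above the median of the duplicated class and far below Mir125a. Mir125b-1 exceeded Mir125b-2 by 2.03-fold in replicate 1 and by 1.90-fold in replicate 2, which rests on whatever reads could be placed, and the files do not give the arm of a read.

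**Figure D2:**
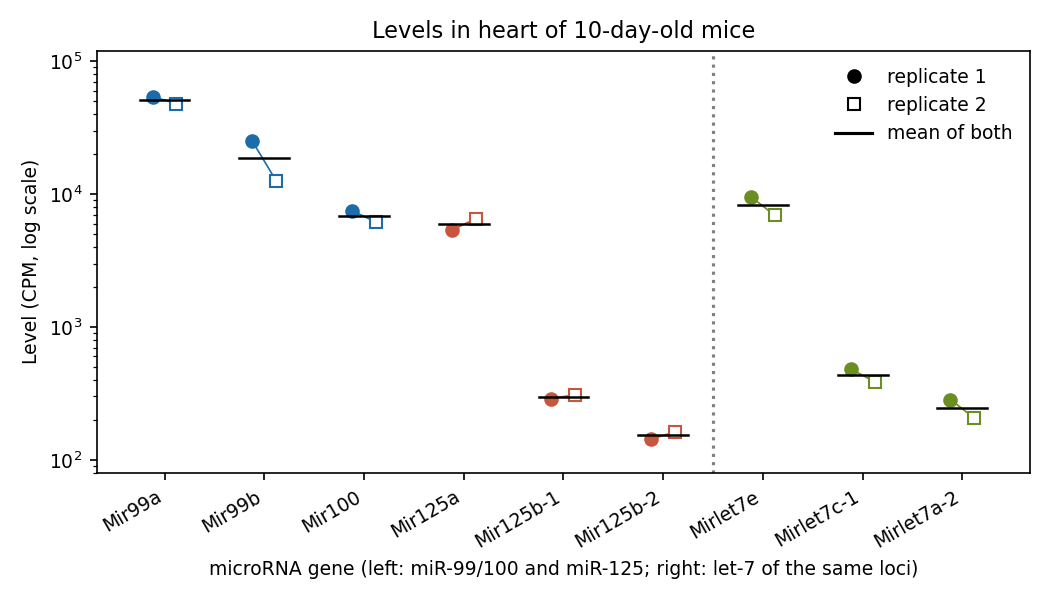
Level of each gene in CPM on a log axis, with filled circles for replicate 1, open squares for replicate 2 and a black bar at the mean (n = 2). Left of the dotted line are the members, right of it the let-7 genes of the same loci. Genes with a duplicated 5p form (Mir125b-1, Mir125b-2, Mirlet7c-1 and Mirlet7a-2) lie between 143 and 484 CPM, and the others between 5342 and 54214 CPM.

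The miR-99/100 genes outweighed the let-7 genes of their own loci in both libraries, whereas Mir125a and Mir125b-2 lay below theirs. At the compact locus, the one with no duplicated 5p form, Mir99b and Mir125a together exceeded Mirlet7e by 3.19-fold in replicate 1 and 2.76-fold in replicate 2. Summed over the 3 loci, members exceeded let-7 by 8.99-fold in replicate 1 and 9.82-fold in replicate 2, a mean log2 ratio of 3.23 ± 0.090 (SD, n = 2). Mirlet7e, the best counted of the let-7 genes here, reached 9531 CPM in replicate 1 against 6917 CPM in replicate 2. Mirlet7c-1 had 484 and 385 CPM and Mirlet7a-2 had 284 and 206 CPM. Both have duplicated 5p forms and are therefore uncertain, as is the ratio summed over the 3 loci. The SD of that ratio does not include this uncertainty. The whole let-7 family of 12 genes held 27.5% and 21.5% of the counts, so the let-7 of the heart libraries was mostly counted at other loci.

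Within the compact locus the balance of the genes differed between the libraries. Mir99b took 62.7% of the counts of the locus in replicate 1, with an exact 95% interval of 62.5% to 63.0%, against 48.3% in replicate 2, with 48.1% to 48.5%. Mirlet7e took 23.9% and 26.6%, and Mir125a took 13.4% (13.2% to 13.5%) and 25.1% (24.9% to 25.3%). Mir99b thus exceeded Mir125a by 4.69-fold in replicate 1 and by 1.92-fold in replicate 2, although their hairpins lie within 692 bases on 1 strand. The difference is beyond the counting error of independent reads, and with 1 library on each side no spread between hearts can be set against it.

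In the spread-out loci the miR-99/100 gene held nearly all counts, so that these shares show little of how the other genes moved. Mir99a took 98.9% of the counts of its locus in each library, and Mir100 took 92.9% and 92.3%. The balance of miR-125 to let-7 differed between the libraries at each locus. Mir125a was 1.78-fold below Mirlet7e in replicate 1 and 1.06-fold below it in replicate 2. Mir125b-2 was 3.39-fold and 2.37-fold below Mirlet7c-1. Mir125b-1 was nearly level with Mirlet7a-2 in replicate 1, with 1084 against 1065 counts, and above it in replicate 2, with 1946 against 1296 counts. Each of these ratios was lower in replicate 1, by 1.69-fold, 1.43-fold and 1.48-fold in that order. Mir99a exceeded Mir125b-2 by 379-fold and 295-fold and Mir100 exceeded Mir125b-1 by 25.9-fold and 19.9-fold in replicates 1 and 2, ratios that the duplicated 5p form of miR-125b leaves uncertain. The ratio of the miR-99/100 gene to the miR-125 gene was therefore higher in replicate 1 at each of the 3 loci. On the log2 scale it was higher by 1.29 for Mir99b to Mir125a, by 0.36 for Mir99a to Mir125b-2 and by 0.38 for Mir100 to Mir125b-1. Such ratios are taken within a library, so no scaling between libraries enters them. Over all 6 genes the log2 ratio of the families was 3.91 in replicate 1 and 3.25 in replicate 2 (mean 3.58 ± 0.47). This ratio is uncertain too, since its miR-125 sum includes both miR-125b genes.

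**Figure D3:**
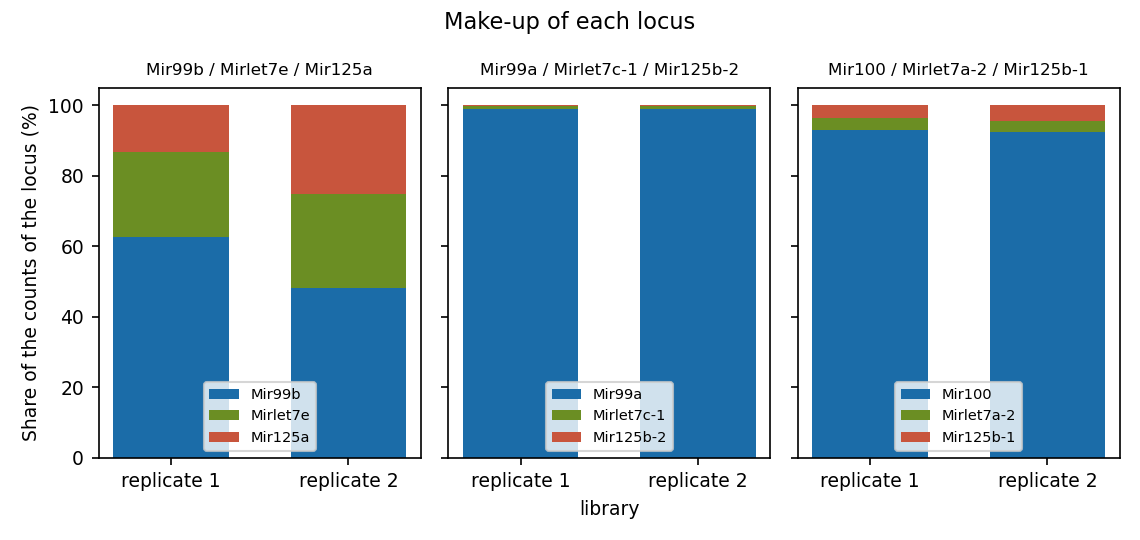
Stacked bars of the share of each gene, in percent of the counts of its locus, for replicates 1 and 2. Blue is miR-99/100, green let-7 and red miR-125. In the compact locus Mir99b holds 62.7% in replicate 1 and 48.3% in replicate 2, while the miR-99/100 gene of the other loci holds at least 92.3%.

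Between the libraries, the miR-99/100 genes were higher and the miR-125 genes lower in replicate 1 after TMM scaling, which aligns the libraries on genes of intermediate ratio. Against counting error alone all 6 members were called by an exact two-sided binomial test at a Benjamini-Hochberg adjusted p of 0.05, and so were 72.1% of the 340 detected genes. The 3 called higher in replicate 1 stand beside 37.9% of detected genes, and the 3 called lower beside 34.1%. Each member had a mean of at least 100 CPM. Of the 158 genes at that level 147 were called, 70 higher and 77 lower. With such a background a call says little, and the size of the difference is the more useful value. The test compares 2 libraries and not conditions.

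Mir99b had the largest difference of the members, a log2 ratio of replicate 1 over replicate 2 of 0.85 (exact 95% interval 0.84 to 0.87), or 1.81-fold. Mir125a was the next at -0.43 (-0.46 to -0.41). Mir125b-2 had -0.33 (-0.48 to -0.18) and Mir125b-1 had -0.24 (-0.34 to -0.13). Mir100 had 0.15 (0.12 to 0.17) and Mir99a 0.034 (0.026 to 0.042). By the exact binomial test the adjusted p was 5.33e-16 for Mir99a, the smallest difference, and 2.82e-05 for Mir125b-2, the least counted member. No member reached a 2-fold difference, against 20.0% of the detected genes. The median absolute log2 ratio was 0.28 for the members and 0.54 for all detected genes, or 0.46 for the 158 genes whose mean reached 100 CPM, as that of each member did.

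Where a ratio of 0 lies depends on the scaling. TMM shifts each ratio by -0.14 relative to total counts, and with total counts 5 members were called, 3 higher and 2 lower, beside 71.5% of detected genes, 42.9% higher and 28.5% lower. The member lost was Mir125b-1 (log2 ratio -0.093). DESeq2 size factors shift the ratios by a further -0.045, and Mir99a then had -0.011, so that 2 members were called higher and 4 lower, beside 70.6% of detected genes, 35.0% higher and 35.6% lower. The direction of the other 5 members was the same under the 3 scalings. The cardiac muscle markers did not move together, with log2 ratios of 1.34 for Mir208a, -2.26 for Mir208b and -1.18 for Mir499, and their part in these differences was not tested. After TMM scaling the let-7 genes of the same loci were higher in replicate 1, Mirlet7e with a log2 ratio of 0.32, Mirlet7c-1 with 0.19 and Mirlet7a-2 with 0.32. The balance of miR-99/100 to let-7 did not move the same way at each locus. Its log2 value in replicate 1 minus that in replicate 2 was 0.53 for Mir99b to Mirlet7e. It was -0.15 for Mir99a to Mirlet7c-1 and -0.18 for Mir100 to Mirlet7a-2. Of the 12 genes of the let-7 family, all were called, 8 higher and 4 lower in replicate 1. Of all detected genes 72.1% were called, 37.9% higher and 34.1% lower. With total counts 11 of the 12 were called, 9 higher and 2 lower, beside 71.5% of detected genes, 42.9% higher and 28.5% lower.

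**Figure D4:**
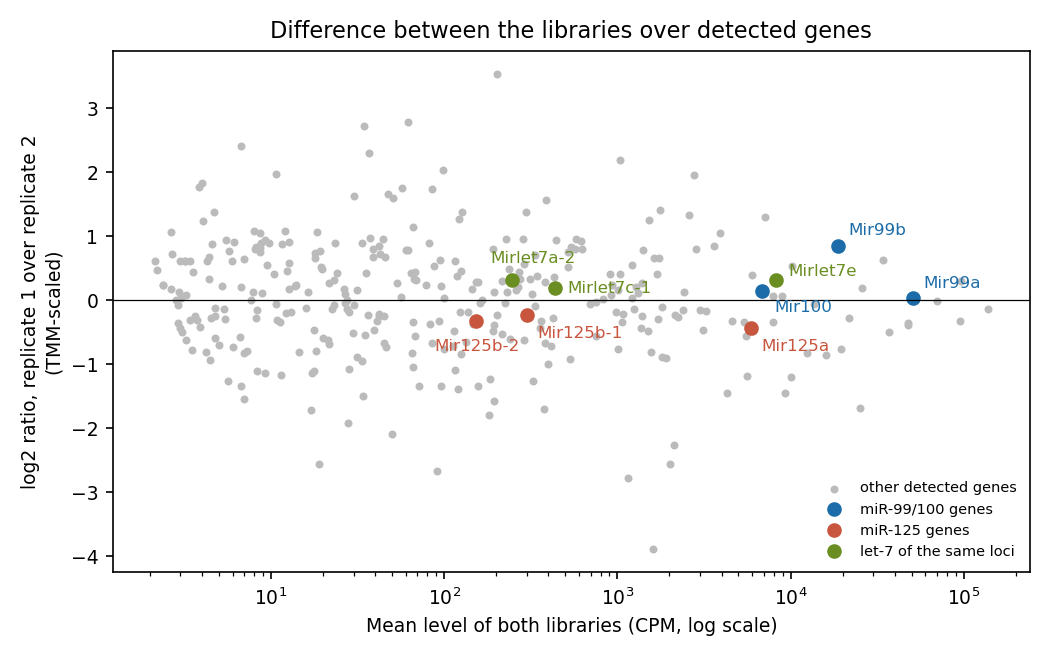
Log2 ratio of replicate 1 over replicate 2 after TMM scaling on the y axis against mean level in CPM on a log x axis, 1 point for each of the 340 detected genes. Blue points are miR-99/100 genes, red miR-125, green let-7 of the same loci and grey all others. The blue points lie at or above 0, from 0.034 to 0.85, except that Mir99a turns to -0.011 with DESeq2 size factors, and the red points below it, from -0.43 to -0.24.

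Base composition of the mature form moved with the difference between the libraries over all genes. Across the 268 detected genes with a 5p form in RefSeq, the share of G and C in that form and the log2 ratio of replicate 1 over replicate 2 had a Spearman correlation of 0.37, given as a description over genes that share 2 libraries. The 39 genes with at least 60% G and C had a median log2 ratio of 0.61, against -0.041 for the rest. Of the members, miR-99b-5p had 63.6% G and C, while miR-99a-5p, miR-100-5p, miR-125a-5p and miR-125b-5p each had 50.0%. The member richest in G and C was thus the one that differed most, but genes of equal composition lay on both sides of 0, from Mir125a at -0.43 to Mir100 at 0.15. The part of base composition in the ratios was not tested.

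**Figure D5:**
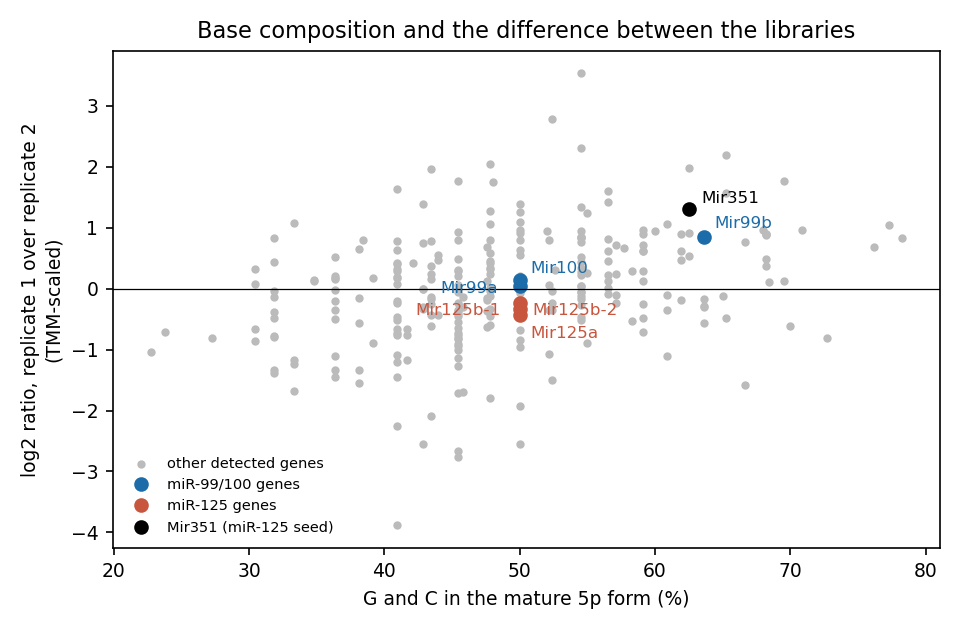
Share of G and C in the mature 5p form in percent on the x axis and log2 ratio of replicate 1 over replicate 2 after TMM scaling on the y axis, 1 point for each of 268 detected genes. Blue points are miR-99/100 genes, red miR-125, black Mir351 and grey all others. Mir99b at 63.6% and Mir351 at 62.5% lie above 0, and the other 5 members share 50.0% with ratios from -0.43 to 0.15.

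Relatives of the members outside the 3 loci were counted too. The seed of miR-125 is also carried by Mir351 of the X chromosome, whose hairpin belongs to the cluster of Mir322, and by Mir6367 and Mir6394, which had no count in either library.
miR-351-5p: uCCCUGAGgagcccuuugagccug
Mir351 reached 10486 CPM in replicate 1 against 3843 CPM in replicate 2, so that it exceeded Mir125a by 1.96-fold in replicate 1 and was 1.70-fold below it in replicate 2. Mir351, unlike the 3 miR-125 genes, was higher in replicate 1 (log2 ratio 1.31). Beyond the seed its sequence parts from that of miR-125a-5p, with which it shares the first 8 bases.

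MiR-10 belongs to the same ancestral family as miR-99/100, has a different seed and is encoded within the Hox clusters. Its sequence is shown to set that seed beside the one of miR-99/100.
miR-10a-5p: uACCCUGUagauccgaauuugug
Mir10a had 1241 and 1514 CPM in replicates 1 and 2 and Mir10b had 1050 and 808 CPM, so the miR-99/100 genes exceeded both in each library. This pair differed in direction, Mir10a with a log2 ratio of -0.43 and Mir10b with 0.24, and their 5p forms have the same share of G and C, 43.5%.

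Genes nearest to a member in level were found by the distance of log2(CPM + 1) over the 2 libraries. Mir125a was closest to Mirlet7f-2 at a distance of 0.0447, with 5334 and 6745 CPM, and to Mir28a at 0.186. Mir125b-2 was closest to Mir299a (0.0830) and Mir708 (0.226). Mir99a was nearest to Mir23b (0.308) and to the smooth muscle gene Mir143 (0.330), and Mir100 to Mir191 (0.321) and Mir22 (0.342). Mir125b-1 was nearest to Mir503 (0.247) and Mir434 (0.283). Mir99b had no such close match, with Mir139 at 0.845 and Mirlet7b at 0.888.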

How the data were processed

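For each library the authors deposited a table of unnormalized counts over microRNA genes of GENCODE M21 on mm10, per the text deposited with the tables. Which aligner and counter made it is not stated in the labels or files used. Each table has 3 count columns, read from the values as both strands, gene strand and opposite strand. The gene strand was used. The 4 entries that name no gene, which hold 57.6% of the reads of replicate 1 and 63.0% of those of replicate 2, stayed out of library sizes and tests.

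CPM, shares and ratios were computed from these counts. Intervals are exact Clopper-Pearson at 95%. Genes with 10 or more counts in each library entered an exact two-sided binomial test, with the split given by library sizes after TMM scaling (edgeR 4.0.16, scipy 1.17.1), adjusted by Benjamini-Hochberg over 340 genes at 0.05, with 0.5 counts added for log2 ratios. A comparison of 1 library with the other leaves no residual degrees of freedom for a quasi-likelihood test. The procedure was tested on simulated counts with set differences in some genes and counting error alone. They held no spread between hearts, so that test cannot show how the calls behave with it. Alternatives were total counts, DESeq2 1.42.0 size factors, no filter, both strands, a pseudocount of 5 and each library alone. Hairpins, used to count copies of a mature form and not reported here, came from the GENCODE M21 transcripts, and mature forms from RefSeq, which listed all 6 members.

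Genes named are the members, the let-7 genes of their loci, genes that share the seed, Mir10a and Mir10b, and the 2 genes nearest in level to each member. The p-values compare these libraries against counting error. Members and lists were chosen with earlier results of these data known.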

Additional observations from a re-analysis of the deposited data

How the results depend on the processing

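No paired analysis was possible because both libraries belong to 1 group. Of 82 values recomputed under another setting, 71 kept their direction and call or moved by less than 1 SD. With n = 2, leaving out 1 library always moves a mean by less than 1 SD. Those settings were therefore bound to fall among the 71 and show nothing about stability. Mir99a turned to a log2 ratio of -0.011 with DESeq2 size factors, and Mir125b-1 lost its call with total counts, which left 5 of 6 members called. The share of the members was 11.4% with the count over both strands, which has 0 for 22 genes detected on their own strand, and 9.65% without the most abundant gene in the total. The log2 ratio of members to let-7 was 6.94 over both strands, because Mirlet7e overlaps Gm25927 on the other strand and has no count there. With 1 library left out, the share ranged from 7.37% to 9.25%, the log2 ratio of miR-99/100 to miR-125 from 3.25 to 3.91 and that of members to let-7 from 3.17 to 3.30. Depth does not limit the members, each with at least 535 counts in a library, whereas 2 libraries give no usable estimate of the spread between hearts.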
